A study of Homo sapiens with 26 samples.

Results

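The genes described here are 46 genes of the lysosome, of the proton pump that acidifies it, and of autophagy, measured in U2OS cells kept in acidic or neutral medium. They were chosen by symbol from the deposited expression table, which held 19704 symbols, and each was on 1 row. They comprise 14 lysosomal hydrolases and their activators, 4 lysosomal membrane proteins, 12 subunits of the proton pump, 11 autophagy genes and 5 regulators around the transcription factor TFEB and the protein folliculin. U2OS is a human osteosarcoma cell line, and the cells used carried a circadian reporter in which the Arntl promoter drives luciferase, so all groups share that reporter and stand for 1 cell line. The acidic group (pH 6.3) and the neutral group (pH 7.4) each had 13 libraries of RNA, 1 every 4 h between 4 and 52 h after the medium was changed. Both media were bicarbonate-free DMEM with 5% serum, 25 mM PIPES and 25 mM HEPES, and both contained 0.1 µM dexamethasone, which sets the phase of the circadian clock.

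The lysosome breaks down macromolecules with hydrolases that work at acid pH, and the vacuolar ATPase pumps protons into it at the cost of ATP. Autophagy wraps cytoplasm in a double membrane that fuses with the lysosome, and its membrane is decorated with small ubiquitin-like proteins of the LC3 and GABARAP families. Many of these genes carry the so-called CLEAR element, a motif built on CACGTG, which is bound by TFEB and TFE3. These factors are held in the cytoplasm when nutrients are plentiful by a kinase complex at the lysosomal surface, which needs the Rag GTPases and folliculin to act on them.

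The values are FPKM, the fragments of a gene divided by its transcript length and by the library's total of mapped fragments. The table holds no counts, and depth was estimated from the spacing of its low values as 19.9 to 36.1 M fragments (M for mega) in 24 libraries, 11.3 M in the pH 6.3 library of 8 h and 9.82 M in the pH 7.4 library of 12 h. The deviations of a library correlated with the GC content of transcripts across genes most in 1 acidic library, 20 h (r = 0.66), and 3 neutral ones, 28 h (r = 0.78), 44 h (r = -0.68) and 48 h (r = -0.73). The mesenchymal markers expected of a bone sarcoma line summed to 2503 to 3936 FPKM per library at pH 6.3 and 3731 to 5801 FPKM at pH 7.4. The epithelial markers summed to 5.28 to 11.3 FPKM at pH 6.3 and 9.16 to 18.3 FPKM at pH 7.4, with CLDN3 listed at 0. The leukocyte markers summed to 6.93 to 19.0 FPKM at pH 6.3 and 14.7 to 40.9 FPKM at pH 7.4. In the acid test described below, 4 of 7 mesenchymal, 4 of 4 epithelial and 1 of 1 leukocyte markers tested were lower at pH 6.3. Over all genes tested 37.3% were lower. The part of these markers in the results below was not tested. The 28 to 52 h libraries came from a first set of plates and the 4 to 24 h libraries from a second set treated a day later, so hours of treatment and plate set cannot be told apart. There was 1 library per medium and time, so the spread behind each p-value is that between time points.

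Differences are given as pH 6.3 minus pH 7.4 in log2(FPKM + 1), a scale that understates the change of low genes, with limma's adjusted p over all 11838 genes that averaged 1 FPKM or more. In all 45 members were tested, and ATP6V0A1, a membrane subunit of the proton pump, lay below the filter with 0.358 ± 0.256 FPKM at pH 6.3 and 0.198 ± 0.132 FPKM at pH 7.4 (SD, n = 13 each). Of the 45, 24 passed an adjusted p of 0.05 (53.3%), with 8 higher and 16 lower in the acidic medium. Over all genes tested 59.7% passed, 22.4% higher and 37.3% lower, a share close to that of the members. Their median difference was -0.10, against -0.12 over all genes tested. The roles differed in their counts. By limma none of 14 hydrolases was higher (0 also at an unadjusted p under 0.05) and 8 were lower, while 6 of 11 autophagy genes were higher and 1 was lower. No member changed as much as 2-fold on this scale. Without 4 libraries, the 2 of low depth (8 h at pH 6.3 and 12 h at pH 7.4) and the 2 of highest positive GC correlation (20 h at pH 6.3 and 28 h at pH 7.4), all of these calls held but that of TFE3. The libraries of strong negative correlation, 44 and 48 h at pH 7.4, were kept there and left out as well in a fit without 6 libraries. In bulk RNA a change in the number of cells of a kind and a change in RNA per cell cannot be told apart.

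**Figure D1:**
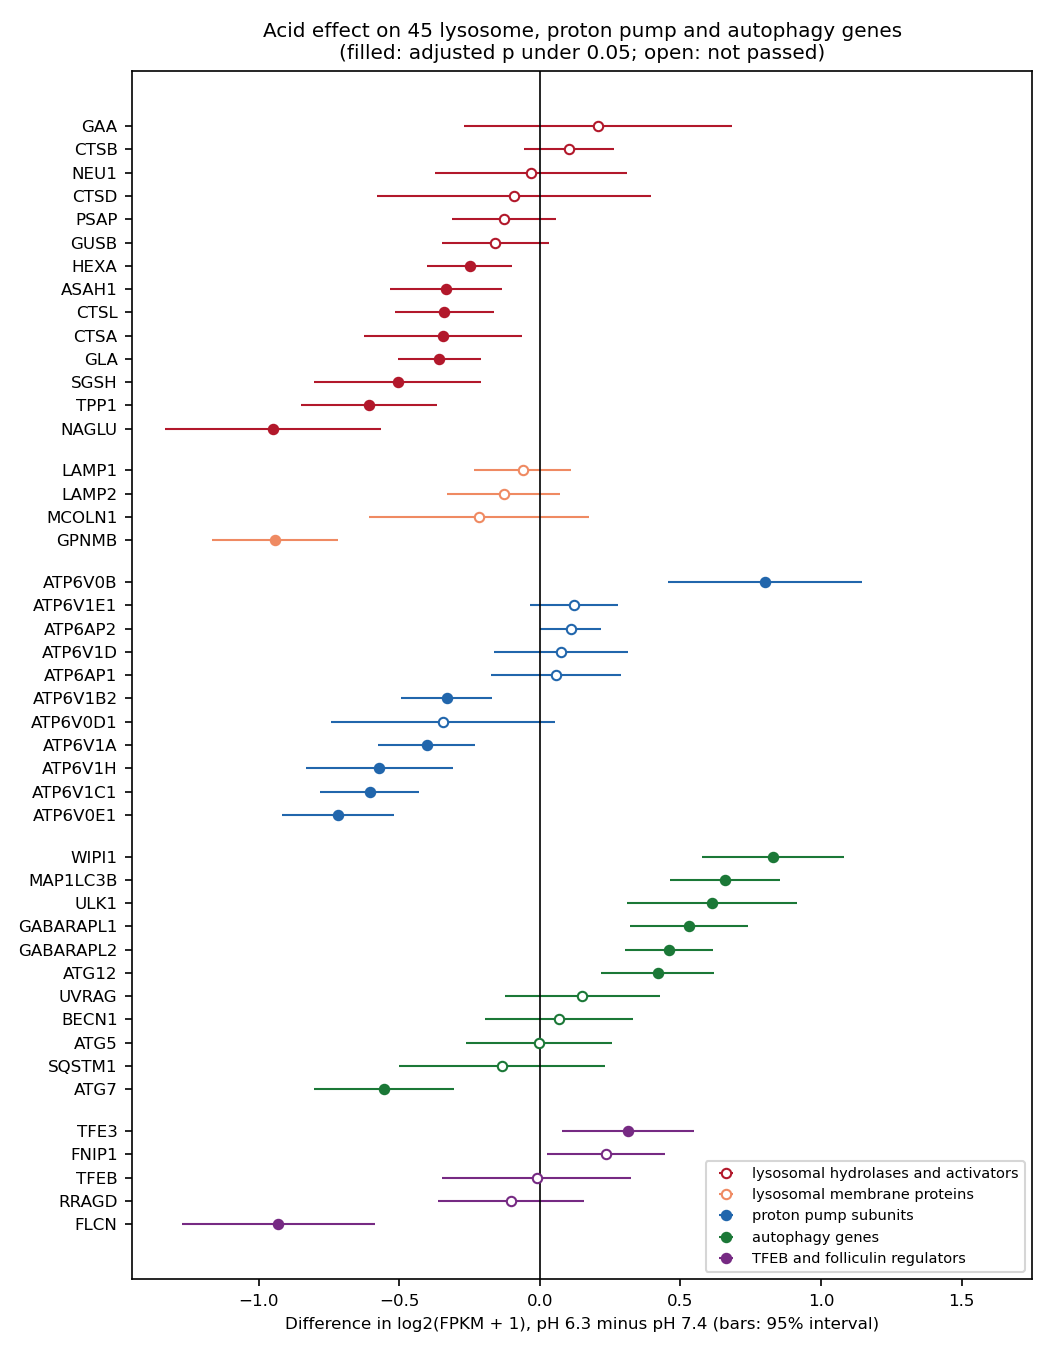
Difference in log2(FPKM + 1) between pH 6.3 and pH 7.4 (horizontal axis) for the 45 tested genes, grouped by role, with 95% intervals from limma over 13 time points; filled points passed an adjusted p of 0.05. The hydrolases lie mostly left of 0, with 8 filled, and the autophagy genes mostly right of it, with 6 filled to the right.

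Promoters of 5 members are shown for the CACGTG motif of the CLEAR element, whose counts by role are given without a test. RefSeq promoter windows on GRCh38.p14, from 250 bases before to 50 bases after each annotated start, were matched for 32 of the 46 members and searched on both strands for 3 nested motifs, CACGTG, GTCACGTG and TCACGTGA, of which the longer 2 contain the first. CACGTG was in 9 of 32 member windows (28.1%), against 7.43% of all 27305 windows. GTCACGTG was in 25.0% of member windows, against 2.53% of all, and TCACGTGA in 15.6%, against 1.04%. CACGTG was in the windows of 4 of 8 hydrolases (CTSD, CTSA, NEU1 and GAA), 2 of 3 membrane proteins (LAMP1 and MCOLN1), 2 of 7 pump subunits (ATP6V0B and ATP6V0D1), 1 of 4 regulators (FNIP1) and 0 of 10 autophagy genes. By response to acid, it was in 1 of 8 windows of members higher at pH 6.3, 1 of 7 of those lower and 7 of 16 of those that did not pass. A match describes these letters in this window and does not show a bound site. Below are the windows, from 100 bases before to 50 bases after the start, of a hydrolase that was lower at pH 6.3 (CTSA, plus strand, chr20:45891235-45891384), 2 motif-bearing genes that did not pass (GAA, plus strand, chr17:80101481-80101630, and MCOLN1, plus strand, chr19:7522524-7522673), the pump subunit that was higher (ATP6V0B, plus strand, chr1:43974860-43975009) and the autophagy gene with the largest increase, which holds no match (WIPI1, minus strand, chr17:68457447-68457596). Capitals mark matches to any of the 3 motifs on either strand.
CTSA: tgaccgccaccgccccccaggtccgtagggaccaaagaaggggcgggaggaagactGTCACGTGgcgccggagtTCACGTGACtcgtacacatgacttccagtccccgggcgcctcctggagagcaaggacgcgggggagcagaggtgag
GAA: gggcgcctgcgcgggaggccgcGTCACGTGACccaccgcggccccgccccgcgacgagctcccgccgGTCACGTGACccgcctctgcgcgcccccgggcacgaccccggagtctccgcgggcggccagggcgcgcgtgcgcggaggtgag
MCOLN1: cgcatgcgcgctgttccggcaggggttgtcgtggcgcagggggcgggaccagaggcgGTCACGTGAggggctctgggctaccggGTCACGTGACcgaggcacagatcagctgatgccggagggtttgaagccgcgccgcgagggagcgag
ATP6V0B: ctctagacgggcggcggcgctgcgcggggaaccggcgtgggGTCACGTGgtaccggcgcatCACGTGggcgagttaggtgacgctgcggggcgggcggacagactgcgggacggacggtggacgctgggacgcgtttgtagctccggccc
WIPI1: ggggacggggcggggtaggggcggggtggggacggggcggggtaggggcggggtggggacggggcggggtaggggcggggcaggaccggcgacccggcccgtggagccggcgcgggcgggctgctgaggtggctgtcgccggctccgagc
The first base of CACGTG lies at -42 and -25 relative to the annotated start in CTSA, at -76 and -31 in GAA, at -41 and -14 in MCOLN1 and at -57 and -39 in ATP6V0B. LAMP1 held 6 copies in its window, the most among the 32 windows searched.

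Among the hydrolases the largest decrease at a level of at least 5 FPKM was that of TPP1, an aminopeptidase that clips tripeptides from proteins (chromosome 11, 6612763 to 6619485, minus strand, GENCODE 29). TPP1 had 43.8 FPKM in its lowest library, a median of 50.1 and 64.1 in its highest at pH 6.3, against 50.9, 84.6 and 121 FPKM at pH 7.4. The acidic libraries stayed flat over time, the neutral ones were higher in the later plates, and the groups overlapped at 4 to 24 h but not at 28 to 52 h. The difference was -0.61 ± 0.11 (SE; adjusted p = 0.00028), with pH 6.3 lower at 12 of 13 times. SGSH, a sulfatase that degrades heparan sulfate (chromosome 17, 80206716 to 80220923, minus strand), was low in both media, with 1.99, 3.59 and 6.77 FPKM (lowest, median and highest library) at pH 6.3 and 2.47, 6.04 and 11.3 FPKM at pH 7.4. The groups overlapped in both plate sets, and the difference was -0.51 ± 0.14 (adjusted p = 0.0054).

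Another enzyme of heparan sulfate breakdown, NAGLU, was the hydrolase with the largest decrease, -0.95 ± 0.18 (adjusted p = 0.00032), with 1.5 ± 1.1 FPKM at pH 6.3 against 3.87 ± 2.04 FPKM at pH 7.4 (SD, n = 13 each). GLA, the galactosidase deficient in Fabry disease, was lower at 13 of 13 times, with 36.0 ± 4.15 FPKM at pH 6.3 against 46.3 ± 3.37 FPKM at pH 7.4, a difference of -0.36 (adjusted p = 0.00039). Over all genes 8.19% were lower at all 13 times and 4.43% higher. The cysteine protease CTSL fell with time in the acidic medium (later minus earlier plates -0.53, adjusted p = 4.2e-05). It had 159 FPKM at 8 h and 79.3 FPKM at 52 h at pH 6.3, against 151 and 127 FPKM at pH 7.4 at those times. Its difference was -0.34 (adjusted p = 0.0023). ASAH1, the acid ceramidase, and HEXA, a subunit of beta-hexosaminidase, differed by -0.33 (adjusted p = 0.0058) and -0.25 (adjusted p = 0.0065). CTSA, a carboxypeptidase that also protects the sialidase NEU1 in a complex, differed by -0.34, close to the threshold (adjusted p = 0.034). It shares 17.7% of its exon bases with NEURL2 on the opposite strand, a gene at 0.366 FPKM. With each library corrected for GC content the calls of CTSA, CTSL, HEXA and ASAH1 were lost and CTSB was called higher. So 4 of 14 hydrolases remained lower, where 3842 of 11815 genes in all were lower after that correction. The median of the 14 was -0.29 as deposited and -0.15 so corrected. That of all genes tested moved as well, from -0.12 to -0.01.

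The other 6 hydrolases did not pass. The abundant sphingolipid activator precursor PSAP had 495 ± 39.0 FPKM at pH 6.3 and 550 ± 112 FPKM at pH 7.4, with a 95% interval of the difference of -0.31 to 0.06. The protease CTSB, with 572 ± 266 FPKM at pH 6.3 against 520 ± 205 FPKM at pH 7.4, had an interval of -0.06 to 0.26. The protease CTSD also spread widely within each medium, with 30.0, 44.7 and 124 FPKM (lowest, median and highest) at pH 6.3 and 23.1, 50.7 and 160 FPKM at pH 7.4, and its interval ran from -0.58 to 0.40. GUSB, a glucuronidase, had an interval of -0.35 to 0.03, NEU1 one of -0.37 to 0.31 and GAA, which breaks down glycogen, one of -0.27 to 0.68. The highest library of CTSD, NEU1 and GAA was 20 h at pH 6.3 and 28 h at pH 7.4, the libraries of high correlation with GC content. The same 2 libraries held both maxima in 11 of the 46 members, among them MCOLN1, ULK1, TFEB and FLCN. The share of all genes with both maxima there was not counted, so this does not set the members apart. The part of GC content in these maxima was not tested.

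GPNMB, a transmembrane glycoprotein of lysosomes and melanosomes, had the largest decrease of the 4 membrane proteins (chromosome 7, 23235967 to 23275108, plus strand). It had 8.60, 16.3 and 63.1 FPKM (lowest, median and highest library) at pH 6.3, against 12.0, 39.0 and 89.2 FPKM at pH 7.4. In both media the level climbed with time, and the acidic library lay below the neutral one at 13 of 13 times, although the groups overlapped. The difference was -0.94 ± 0.11 (adjusted p = 3.0e-06), with -0.91 in the earlier plates and -0.97 in the later plates, a change of -0.06 ± 0.21 (SE) between them. The gap was not constant within the plate sets: it was -0.055 at 4 h, widest at 32 h (-1.37), and then narrowed to -0.45 at 52 h. The lysosomal calcium channel MCOLN1, whose promoter is shown above, had 2.04, 3.05 and 6.91 FPKM at pH 6.3 and 1.92, 4.02 and 11.1 FPKM at pH 7.4. Its groups overlapped widely, with an interval of -0.61 to 0.17. LAMP1 and LAMP2, the main glycoproteins of the lysosomal membrane, had 192 ± 26.2 and 125 ± 12.4 FPKM at pH 6.3, against 202 ± 37.7 and 139 ± 32.5 FPKM at pH 7.4. Their intervals were -0.23 to 0.11 and -0.33 to 0.07.

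The proton pump subunits did not move together: of 11 tested, 1 was higher and 5 were lower, with a median of -0.33. These are 9.09% and 45.5%, against 22.4% and 37.3% over all genes tested, whose median was -0.12. The subunit that was higher was ATP6V0B, a proteolipid of the membrane ring that carries the protons (chromosome 1, 43974487 to 43978295, plus strand). It had 94.6, 151 and 222 FPKM (lowest, median and highest library) at pH 6.3, against 44.6, 88.5 and 145 FPKM at pH 7.4. The acidic libraries rose over the course, the neutral ones were lowest at 44 and 48 h, and the groups overlapped. The difference was 0.80 ± 0.16 (adjusted p = 0.00056), higher at 12 of 13 times. It passed in the earlier plates (0.45, adjusted p = 0.045) and in the later plates (1.10, adjusted p = 0.0028).

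ATP6V0E1, a small subunit of the same membrane sector, went the other way (chromosome 5, 172983757 to 173035445, plus strand). It had 92.5, 120 and 149 FPKM at pH 6.3, against 148, 194 and 216 FPKM at pH 7.4. Only the extreme libraries of the groups overlapped, and the later ones did not. The difference was -0.72 ± 0.09 (adjusted p = 1.1e-05), lower at 13 of 13 times. ATP6V1C1, a subunit that links the catalytic sector to the membrane sector (chromosome 8, 103021063 to 103073051, plus strand), had 58.5, 69.3 and 94.0 FPKM at pH 6.3, against 77.5, 105 and 165 FPKM at pH 7.4. It too was lower at 13 of 13 times, by -0.61 ± 0.08 (adjusted p = 1.7e-05), without overlap in the later plates.

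The other decreases were all in the catalytic sector. ATP6V1A, which hydrolyses ATP, differed by -0.40 (adjusted p = 0.00052), ATP6V1B2, its partner in the ring, by -0.33 (adjusted p = 0.0013) and ATP6V1H, which regulates coupling to the membrane, by -0.57 (adjusted p = 0.00088). Of the subunits that did not pass, ATP6V1E1, ATP6AP1 and ATP6AP2, the first in the stalk and the others accessory proteins, had intervals of -0.04 to 0.28, -0.17 to 0.29 and 0.00 to 0.22 (adjusted p of ATP6AP2 = 0.074). ATP6V0D1, which joins ring and stalk, had a wider interval of -0.74 to 0.05, with its highest neutral value of 93.1 FPKM at 28 h. ATP6V1D, part of the central axle, had 126 ± 46.7 FPKM at pH 6.3 against 113 ± 14.2 FPKM at pH 7.4 and an interval of -0.16 to 0.31. Summed over the 12 subunits the pump had 953 ± 120 FPKM at pH 6.3 and 1008 ± 95.2 FPKM at pH 7.4 (SD over times, n = 13 each). Paired by time the sum was lower at pH 6.3 at 10 of 13 times, with a mean difference of -54.4 ± 57.1 FPKM (SD, n = 13).

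**Figure D2:**
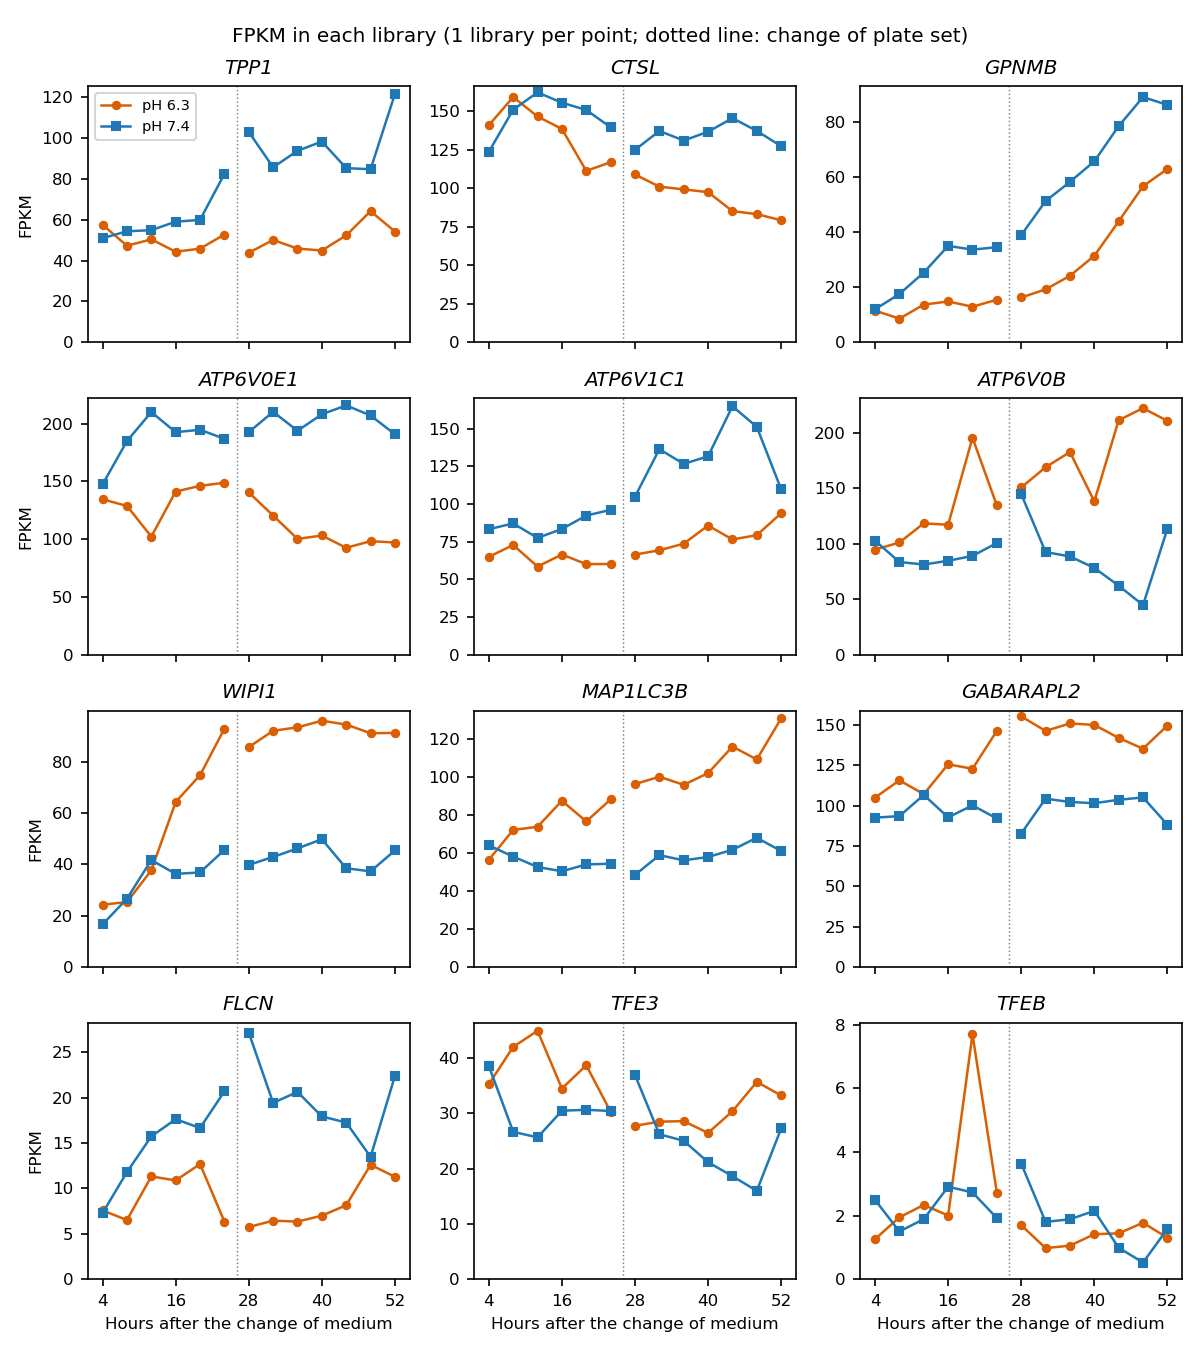
FPKM (vertical axes) against hours after the change of medium (horizontal axes) for 12 genes, with 1 library per point; circles are pH 6.3, squares pH 7.4, and lines break where the plate set changes. In TPP1, ATP6V0E1 and ATP6V1C1 the acidic points lie below the neutral ones after 4 h, and in WIPI1, MAP1LC3B and GABARAPL2 they lie above them from 16 h on.

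The autophagy genes as a group were the ones most often higher. WIPI1, which binds the lipid that marks the site of a new autophagosome (chromosome 17, 68420948 to 68457513, minus strand), had 24.2, 91.1 and 95.9 FPKM (lowest, median and highest library) at pH 6.3, against 16.5, 39.7 and 49.8 FPKM at pH 7.4. Up to 12 h the curves of the media crossed, and from 16 h on every acidic library was above every neutral one. The difference was 0.83 ± 0.12 (adjusted p = 2.8e-05). WIPI1 shares 24.3% of its exon bases with ARSG on the opposite strand, a gene at 0.834 FPKM. MAP1LC3B, the LC3 protein that is attached to the autophagosome membrane (chromosome 16, 87383995 to 87404779, plus strand), had 56.5, 96.0 and 131 FPKM at pH 6.3, against 48.5, 57.9 and 68.1 FPKM at pH 7.4. The acidic level climbed over the course while the neutral level stayed flat, and the difference was 0.66 ± 0.09 (adjusted p = 2.1e-05). Reads of MAP1LC3B can also match its near-identical copy MAP1LC3B2, so its value is uncertain to that extent.

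GABARAPL2 and GABARAPL1, relatives of LC3, were higher by 0.46 (adjusted p = 7.5e-05) and 0.53 (adjusted p = 0.00026). GABARAPL2 was the only member higher at 13 of 13 times, with 135 ± 17.6 FPKM at pH 6.3 against 97.4 ± 7.47 FPKM at pH 7.4. The initiating kinase ULK1 was higher by 0.61 (adjusted p = 0.0016) at a low level, 4.64 ± 2.01 FPKM at pH 6.3 and 2.63 ± 1.01 FPKM at pH 7.4. ATG12, which is joined to ATG5 in the complex that attaches LC3, was higher by 0.42 (adjusted p = 0.0012), and it shares 4.25% of its exon bases with AP3S1 on the opposite strand. Under each of the 3 other scalings (upper quartile, quantile and GC content) the same counts of 6 higher and 1 lower were found in this role.

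The autophagy gene that was lower was ATG7, the enzyme that activates ATG12 and the LC3 family (chromosome 3, 11272309 to 11557665, plus strand). It had 8.91, 16.7 and 23.1 FPKM at pH 6.3, against 14.4, 23.9 and 27.5 FPKM at pH 7.4. The gap was widest at 12 h, and the groups overlapped in both plate sets. The difference was -0.55 ± 0.12 (adjusted p = 0.00074), lower at 12 of 13 times. Of its annotated exon bases 18.1% are shared with VGLL4 on the opposite strand, and the strand setting of the counting is not given in the sources used here, so reads there cannot be assigned.

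SQSTM1, the receptor p62 that carries ubiquitinated cargo into autophagosomes (chromosome 5, 179806398 to 179838078, plus strand), had 23.8, 41.9 and 86.8 FPKM at pH 6.3, against 32.9, 50.9 and 104 FPKM at pH 7.4. The acidic library was lower at 9 of 13 times, the groups overlapped, and the interval was -0.50 to 0.23. It shares 20.7% of its exon bases with MRNIP on the opposite strand. BECN1 and UVRAG, parts of the lipid kinase complex of autophagy, and ATG5 had intervals of -0.19 to 0.33, -0.12 to 0.43 and -0.26 to 0.26. The mean difference of each changed its sign between the plate sets, as described further on. By limma within each plate set alone, the earlier difference did not pass for BECN1 (-0.35, adjusted p = 0.091) and ATG5 (-0.36, adjusted p = 0.11). The later one did not pass for UVRAG (-0.22, adjusted p = 0.12).

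Among the regulators FLCN, folliculin, showed the largest difference (chromosome 17, 17212212 to 17237188, minus strand). It had 5.73, 7.57 and 12.7 FPKM (lowest, median and highest library) at pH 6.3, against 7.28, 17.6 and 27.2 FPKM at pH 7.4. The media were close at 4 h and 48 h and apart at the other times, and the later libraries did not overlap. The difference was -0.93 ± 0.16 (adjusted p = 0.00015). FNIP1, which binds folliculin, had 20.5 ± 3.72 FPKM at pH 6.3 against 17.5 ± 4.36 FPKM at pH 7.4 and lay just outside the threshold at 0.23 (adjusted p = 0.051).

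TFE3, a transcription factor that binds the CLEAR element (chromosome X, 49028726 to 49043486, minus strand), had 26.4, 33.2 and 44.9 FPKM at pH 6.3, against 16.0, 26.6 and 38.6 FPKM at pH 7.4. The groups overlapped, the difference was 0.31 ± 0.11 (adjusted p = 0.023), and the call was lost both without the 4 and without the 6 libraries named above. TFEB (chromosome 6, 41683978 to 41736259, minus strand) was near the bottom of the tested range, with 0.976, 1.70 and 7.71 FPKM at pH 6.3 and 0.521, 1.89 and 3.64 FPKM at pH 7.4. Its highest acidic value was the 20 h library alone, and the interval was -0.35 to 0.32. RRAGD, a Rag GTPase, had an interval of -0.36 to 0.16. The 5 transcripts say nothing of where TFEB or TFE3 protein was located.

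**Figure D3:**
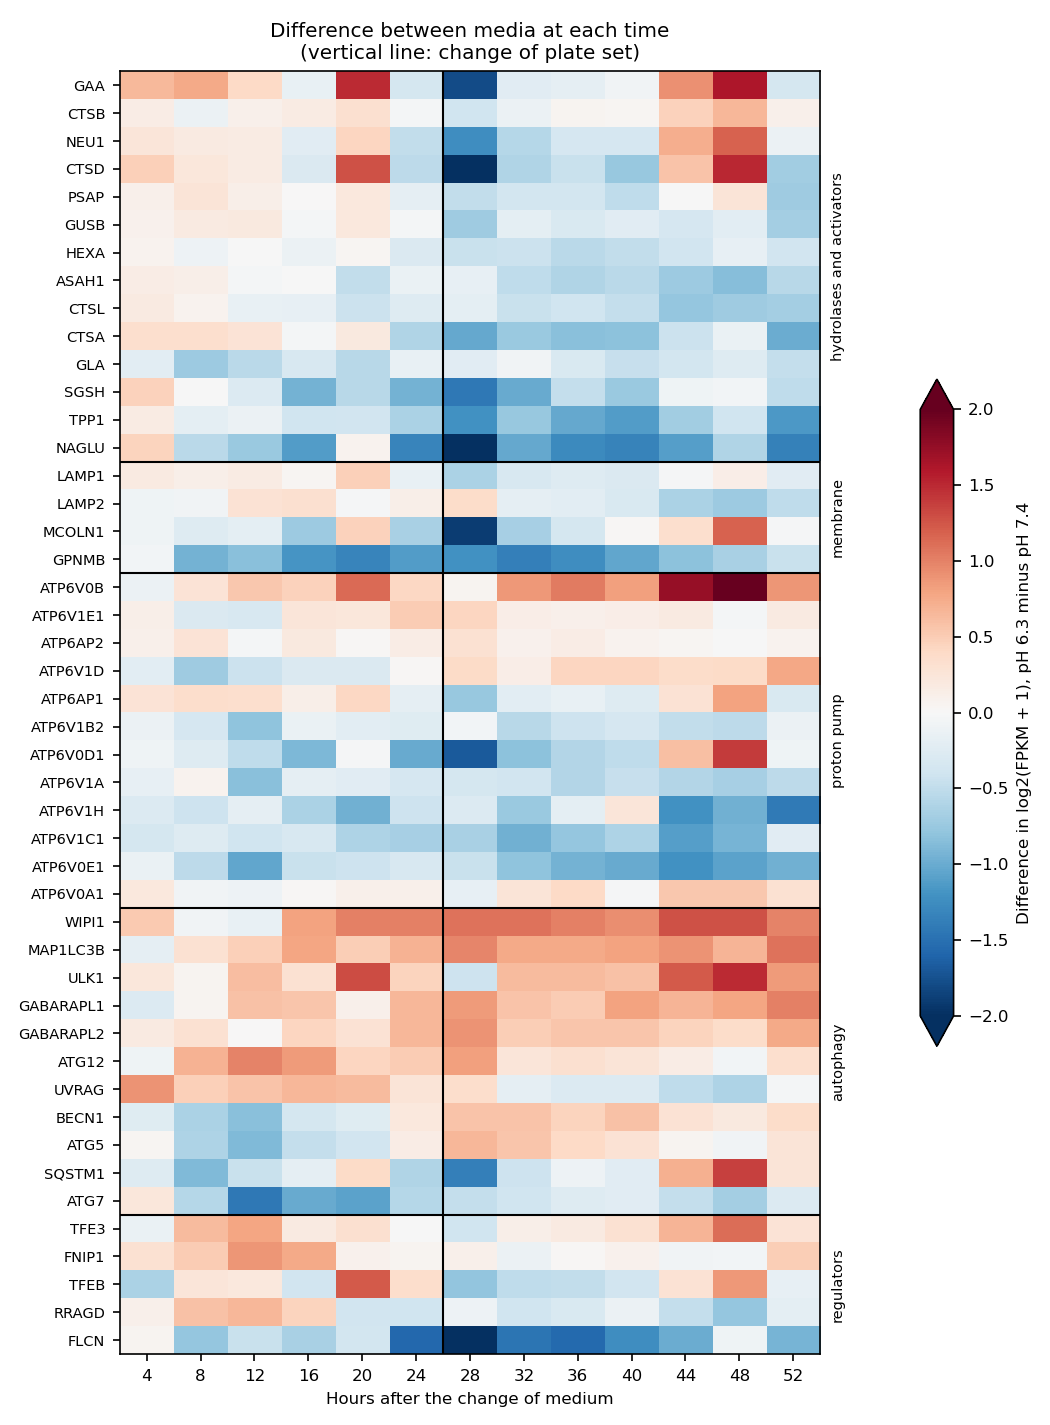
Difference in log2(FPKM + 1), pH 6.3 minus pH 7.4, for the 46 genes (rows, by role) at each time (columns, hours after the change of medium); red is higher and blue lower at pH 6.3, colours end at a difference of 2 either way, and 4 of 598 values lie beyond. At 28 h CTSD, NAGLU and FLCN are darkest blue, and at 48 h ATP6V0B is darkest red.

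The acid difference was next compared between plate sets. Within the 4 to 24 h plates alone 4 members were higher and 7 lower (background 8.57% and 18.1%), and within the 28 to 52 h plates alone 10 were higher and 21 lower (background 27.0% and 36.4%). Called higher in both sets were ATP6V0B, MAP1LC3B and ATG12. Called lower in both were GLA, GPNMB, ATP6V0E1, ATP6V1C1, ATP6V1H, ATG7 and FLCN. The share of all genes called in both sets was not counted. Over all 13 times no member's acidic and neutral values were free of overlap (background 3.66%, 1.28% higher and 2.37% lower). Among the 28 to 52 h libraries alone 5 members were higher and 11 lower at pH 6.3 without overlap (background 40.3%, 16.9% higher and 23.4% lower), so these 16 of 45 were no larger a share than that of all genes. They included TPP1, CTSL, ATP6V0E1, WIPI1, GABARAPL2 and FLCN.

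The test of the difference between plate sets called 3 members with a more positive and 7 with a more negative acid difference in the later plates, where 17.1% of all genes passed, 10.5% and 6.56% in these directions. Of the 7, 6 were hydrolases. CTSA differed between media by 0.08 in the earlier plates and -0.71 in the later plates, a change of -0.80 (adjusted p = 0.0085). TPP1 changed by -0.64 (adjusted p = 0.015), ASAH1 by -0.49 (adjusted p = 0.024), GUSB by -0.48 (adjusted p = 0.020), CTSL by -0.40 (adjusted p = 0.045) and HEXA by -0.34 (adjusted p = 0.040). UVRAG was higher at pH 6.3 at 6 of 6 earlier times and at 1 of 7 later times, a change of -0.80 (adjusted p = 0.0056).

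The 3 in the positive direction were ATP6V1D, BECN1 and ATG5. BECN1 had 42.6 to 72.1 FPKM at pH 6.3 and 55.8 to 77.0 FPKM at pH 7.4 in the earlier plates, and 77.5 to 92.6 FPKM at pH 6.3 and 51.9 to 73.9 FPKM at pH 7.4 in the later plates. The acidic libraries were thus mostly below the neutral ones early and all above them late, a change of 0.78 (adjusted p = 0.0046). ATP6V1D changed by 0.73 (adjusted p = 0.0025) and ATG5 by 0.67 (adjusted p = 0.020). ATP6V1D shares 6.33% of its exon bases with EIF2S1, and BECN1 shares 4.68% with PSME3, each on the opposite strand. Without the 4 libraries named above, ATP6V1D, UVRAG and ASAH1 of these 10 still passed. Without 6, where 44 and 48 h at pH 7.4 were also left out, none did by limma, when 2 genes in all were called. There 14 of the 45 members had an unadjusted p under 0.05 by limma. The share of all genes at that unadjusted threshold was not counted. The time point was a block, so a time that lost 1 library gave no pair to these fits, and fewer pairs remained. The members' median plate set difference was -0.23 with all libraries, -0.10 without 4 and -0.19 without 6.

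**Figure D4:**
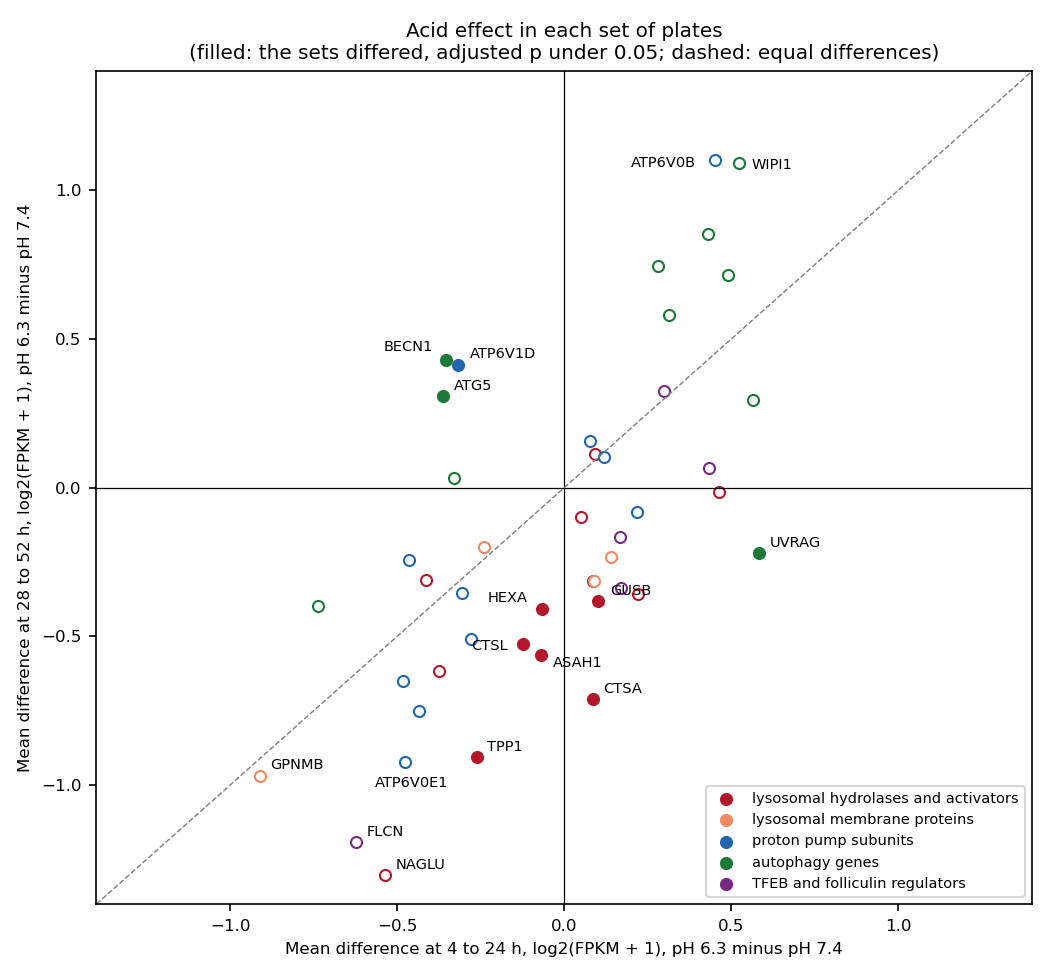
Mean acid difference in the 28 to 52 h plates (vertical axis) against that in the 4 to 24 h plates (horizontal axis), both in log2(FPKM + 1), pH 6.3 minus pH 7.4, for the 45 tested genes coloured by role; filled points passed the test of a difference between plate sets. The 6 filled hydrolases lie below the dashed line of equal differences, and ATP6V1D, BECN1 and ATG5 lie above it.

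Changes within each medium were tested as well. At pH 6.3, 15 members were higher and 4 lower in the later plates than in the earlier ones (41.6% of all genes passed, 25.0% higher and 16.6% lower). The pump subunits ATP6V1A and ATP6V1C1 lost their increase there under each of the 3 other scalings. At pH 7.4, 15 were higher and 0 lower by limma (7.59% of all genes passed, 4.44% higher and 3.14% lower), and at an unadjusted p under 0.05 GABARAPL1 and TFE3 were lower. The later-minus-earlier change at pH 7.4 passed for 6 hydrolases, CTSB, CTSA, HEXA, PSAP, TPP1 and ASAH1, and at pH 6.3 for CTSB as an increase and for CTSL and GUSB as decreases. The change of TPP1 was 0.03 (adjusted p = 0.87) at pH 6.3 and 0.67 (adjusted p = 0.00027) at pH 7.4. CTSB increased in both media, by 1.09 at pH 6.3 and 1.07 at pH 7.4 (adjusted p = 1.8e-05 and 0.00019), as did GPNMB, by 1.3 at pH 6.3 and 1.36 at pH 7.4 (adjusted p = 0.00066 and 0.0028), and RRAGD, by 1.14 at pH 6.3 and 1.64 at pH 7.4 (adjusted p = 6.4e-05 and 1.1e-05). Of the 11 autophagy genes 6 were higher in the later plates at pH 6.3, WIPI1, MAP1LC3B, GABARAPL2, BECN1, ATG5 and ATG7, and 5 did not pass. At pH 7.4 UVRAG was the 1 that passed, with an increase of 1.04 (adjusted p = 0.0001). Of these 7 genes the media differed in their change between plate sets, as given above, for BECN1, ATG5 and UVRAG, while that test did not pass for WIPI1 (adjusted p = 0.055), MAP1LC3B (0.062), GABARAPL2 (0.16) and ATG7 (0.31). In simulated data that test recovered 41% of changes of 1 in log2, so not passing it does not show equal changes.

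Further genes of the same pathways were taken from lists of the pathways, 139 of them tested, of which 31 were higher and 61 lower at pH 6.3. These are 22.3% and 43.9%, against 22.4% higher and 37.3% lower over all genes tested. Of 37 other hydrolases and activators 3 were higher and 22 lower, with a median of -0.32. The collagen-degrading protease CTSK was higher, with 7.01 ± 2.85 FPKM at pH 6.3 against 2.33 ± 0.633 FPKM at pH 7.4, and ACP2, an acid phosphatase, was lower, with 4.53 ± 2.62 FPKM at pH 6.3 against 13.8 ± 2.83 FPKM at pH 7.4. FUCA1, a fucosidase, differed by 0.65 and LIPA, the acid lipase, by -1.12. Of 9 genes that sort enzymes to the lysosome 0 were higher (0 also at an unadjusted p under 0.05) and 7 lower, among them IGF2R, the receptor for mannose 6-phosphate, by -0.87, and GNPTAB, which makes that tag, by -0.70. Of 27 other membrane proteins 6 were higher and 12 lower, with the lysosomal glycoprotein CD68 at 1.02, the sialic acid exporter SLC17A5 at 0.63, the polyamine transporter ATP13A2 at -1.81 and the amino acid transporter SLC36A1 at -1.39.

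Of 15 other pump subunits and assembly factors 4 were higher and 7 lower (26.7% and 46.7%, against 22.4% and 37.3% over all genes tested). ATP6V0A2 (0.62) and ATP6V1C2 (0.57) were higher, while ATP6V1E2 (-0.94) and ROGDI (-0.87) were lower. Of 40 other autophagy genes 16 were higher and 9 lower (40% and 22.5%), with a median of 0.05. ATG101, a partner of ULK1, had 49.6 ± 11.9 FPKM at pH 6.3 and 19.7 ± 7.52 FPKM at pH 7.4 (SD, n = 13 each), a difference of 1.35, and TMEM41B, a lipid scramblase, differed by 0.94. VAMP8, which fuses autophagosome and lysosome, differed by -1.35 and ATG10, which joins ATG12 to ATG5, by -0.98. Of 11 other regulators 2 were higher and 4 lower (18.2% and 36.4%), near the shares over all genes tested. LAMTOR5 of the complex that anchors Rag GTPases was at 0.64 and MITF, a relative of TFEB, at 0.52. The zinc finger gene ZKSCAN3 was at -1.12 and the Rag GTPase RRAGC at -0.71.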

How the data were processed

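RNA of U2OS cells from 13 times in each of 2 media was sequenced with a stranded kit for polyadenylated RNA, per the labels' protocols. The submitters' processing notes name STAR, Cufflinks and hg38, and neither versions nor the annotation nor the strand setting is given in the sources used here. The authors deposited 1 table of FPKM values (19806 rows, 1448 of them 0 in every library). Column names match the sample titles. Coordinates and GC content come from GENCODE 29.

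Depth was estimated from low FPKM values of 1832 genes with a single transcript, where 90.1 to 95.4% lay within 0.1 of a whole fragment number. FPKM are not counts, so no count test was used. Values were tested as log2(FPKM + 1) with limma-trend (limma 3.58.1, R 4.3.3), Benjamini-Hochberg adjustment at 0.05, for the 11838 genes averaging 1 FPKM or more. The acid effect and its difference between plate sets had the time point as a block, since dishes of both media were harvested at each time as a pair, per the labels' protocols; deviations of same-time libraries correlated at -0.51 to 0.42. The later-minus-earlier contrasts came from a fit of 4 groups. The steps were tested on simulated data with changes of 1 and 0.5 in log2. The acid test recovered 95% and 60% of them and the plate set test 41% and 5%. The later-minus-earlier contrast recovered 92% and 37% at pH 6.3 and 79% and 35% at pH 7.4. The simulated spread came from a fit with the time block, which that contrast lacks. Differences between hours within a plate set were thus not simulated, and the recovery of that contrast may be overstated.

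The members and lists were chosen with earlier results of these data known. Values per library are given, by rule, for the 2 largest increases and decreases of each role among called members with at least 5 FPKM, and for TFEB, FLCN, MCOLN1 and SQSTM1; from each other list the 2 largest called changes each way are named. CTSL, CTSD and BECN1 were given per library after their values were seen. Alternatives were another pseudocount (0.1), filters, scalings, a correction for GC content, fits without 4 or 6 libraries, without the block, for each plate set alone, and an exact sign-flip permutation test. RUBCN of the autophagy list was not analysed here.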

Additional observations from a re-analysis of the deposited data

Results flagged for a closer look

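For 10 of the 45 tested members (22.2%) the acid difference was not the same in the 2 plate sets, by the interaction of pH and plate set in limma. Over all genes tested 17.1% passed. The value in each case is the difference in log2(FPKM + 1), pH 6.3 minus pH 7.4, at 28 to 52 h minus that at 4 to 24 h. It was -0.80 for CTSA, -0.64 for TPP1, -0.49 for ASAH1, -0.48 for GUSB, -0.40 for CTSL and -0.34 for HEXA among the hydrolases. Among the pump and autophagy genes it was 0.73 for ATP6V1D, 0.78 for BECN1, 0.67 for ATG5 and -0.80 for UVRAG. BECN1 and ATP6V1D were lower at pH 6.3 at 5 of 6 earlier times and higher at 7 of 7 later times. Without the 4 libraries named above ATP6V1D, UVRAG and ASAH1 still passed, and without 6 libraries no member did by limma. Both of these fits had fewer pairs of libraries. Hours of treatment and plate set cannot be told apart.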

How the results depend on the processing

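Of the 24 member calls for the acid effect, none was lost with a pseudocount of 0.1 or quantile normalization, nor any of the 22 with a value under a filter at 5 FPKM, which left 41 members without NAGLU and ULK1. CTSA was lost with upper-quartile scaling, no filter and the exact sign-flip permutation test, TFE3 without 4 or 6 libraries, and CTSA, CTSL, HEXA and ASAH1 after the GC correction. FNIP1 was called higher under 7 alternatives, and without 6 libraries CTSD, PSAP, MCOLN1 and ATP6V0D1 were called lower. Without the replicate block no member call of the acid effect changed (8 higher and 16 lower). In the 4 to 24 h plates alone 4 members were higher and 7 lower, with 3156 genes called in all, and CTSA turned to 0.085; in the 28 to 52 h plates alone ATG5 turned to 0.31. Quantile normalization moved the median of all genes to -0.02, against -0.12, and the share of calls that were higher to 48.1%, against 37.5%; the GC correction gave 49.3%. For the plate set difference, the GC correction gave 5 members higher and 16 lower (3127 genes in all), the fit without 4 libraries 1 and 3 (697), the fit without 6 libraries 0 and 0 (2) and the fit without the replicate block 5 and 11; its share of higher calls was 61.6%, and 47.8% with upper-quartile scaling. For the change between plate sets at pH 6.3 the share of higher calls was 60.0%, and 51.3% with upper-quartile scaling and 50.4% after the GC correction; ATP6V1A and ATP6V1C1 lost their calls under both and with quantile normalization, ATP6V1E1 under both, and ATP6V1B2 with quantile normalization or upper-quartile scaling. At pH 7.4, 1425 genes were called after the GC correction, 1631 without 4 libraries, with 1 member lower, and 492 without 6 libraries, against 898. The causes were not tested. Depth limits the members under 5 FPKM most, and no time point had a second library.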
